A study of Mus musculus with 10 samples.

Results

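The early response to acid was read in mouse Lewis lung carcinoma (LLC) cells, a tumour line from C57BL/6 mice, after 4 h in medium at pH 6.4 or pH 7.4. Cells of the TDAG8 line stably expressed TDAG8 (gene symbol Gpr65), a receptor on the cell surface that senses protons and couples to cAMP, and cells of the control line carried the vector without it. The promoter of the vector, and whether each line is 1 clone or a pool, were not given in the labels used here. Both lines had been kept without serum for 12 h in DMEM with 0.1% bovine serum albumin at pH 7.4, and the same medium at either pH followed. The 4 arrays at 4 h, of 10 in the series, were chosen by the time point in their titles. They are the TDAG8 line at pH 6.4, the TDAG8 line at pH 7.4, the control line at pH 6.4 and the control line at pH 7.4. Each array is an Affymetrix Mouse430 2.0 array that received RNA mixed in equal amounts from 4 cultures. No condition was measured on more than 1 array, so the 2 lines served as matched repeats of the comparison of pH 6.4 with pH 7.4. The values describe what the lines shared, and mixing the cultures hid the spread between them.

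Acid outside a cell lowers the pH inside it and is also sensed at the surface by receptors and ion channels. Stress of this kind commonly acts first on immediate early genes, which are transcribed without new protein synthesis and include the AP-1, EGR and Krüppel-like transcription factors. NF-kB is a second rapid pathway: its subunits enter the nucleus when their inhibitors are degraded, and they switch on chemokine genes together with the genes of new inhibitors. ATF4 is a transcription factor made when amino acids are short, and MondoA is one that reads glucose phosphates and drives Txnip and Arrdc4. Protein synthesis and growth are held back in many cells when the medium is acid.

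Promoter sequences are shown for genes of the chemokine, NF-kB inhibitor and arrestin groups, because genes of these groups are among those most raised at pH 6.4. The genes shown were picked because each holds a match, so they do not show how common a motif is in its group. Nfkbia is not among the 15 most raised genes. Ccl7 and Txnip are among those 15, but no NF-kB or E-box match was found for them. Each stretch is from RefSeq (build GRCm38.p6), runs 5′ to 3′ on the strand of its gene and lies before the transcription start. Capitals mark matches to the NF-kB motif or, in the last line, to the E-box CACGTG that MondoA partners are known to bind.
Cxcl1, chr5:90891149-90891209, plus strand: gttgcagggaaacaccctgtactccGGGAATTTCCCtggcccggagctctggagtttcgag
Cxcl2, chr5:90903777-90903837, plus strand: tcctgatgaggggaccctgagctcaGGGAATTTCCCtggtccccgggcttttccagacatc
Cxcl10, chr5:92348958-92349073, minus strand: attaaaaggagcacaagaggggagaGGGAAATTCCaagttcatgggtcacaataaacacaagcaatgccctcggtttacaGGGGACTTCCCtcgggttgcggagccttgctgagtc
Tnfaip3, chr10:19015411-19015560, minus strand: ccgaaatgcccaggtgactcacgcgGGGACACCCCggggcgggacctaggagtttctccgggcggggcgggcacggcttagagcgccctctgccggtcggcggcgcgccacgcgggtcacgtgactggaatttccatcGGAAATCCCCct
Nfkbia, chr12:55492648-55492701, minus strand: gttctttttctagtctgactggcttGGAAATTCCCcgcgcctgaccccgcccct
Arrdc4, chr7:68749401-68749456, minus strand: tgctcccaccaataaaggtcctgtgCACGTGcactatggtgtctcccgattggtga

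The marked site lies 71 bases before the start of Cxcl1 and 97 before that of Cxcl2, and these neighbouring genes carry the same 11 letters. In a window from 250 bases before to 50 bases after the start, searched on both strands, 5 of the 13 most strongly raised genes with a promoter in the table held an NF-kB match (Cxcl1, Cxcl2, Cxcl10, Tnfaip3 and Fos). Of the 13 most strongly lowered genes with a promoter, 2 held it (Thap2 and Tmcc3), and over all 27025 genes of the table the share was 9.55%. The AP-1 motif TGANTCA stood in 2 of the raised and 1 of the lowered genes, against 8.97% of all genes, and the CRE motif TGACGTCA in 0 of either, against 2.03%. The CArG box, which binds SRF, stood in 1 raised gene, Arrdc4, against 1.81% of all genes. The E-box CACGTG stood in 3 raised genes (Arrdc4, Gadd45b and Tnfaip3) and 0 lowered genes, against 8.09%. These matches describe the letters of the windows and were not tested, and some motifs overlap in the same bases.

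The deposited signal had a median between 11.7 and 13.6 on the 4 arrays, and 4 to 8 values per array were 0. The Gpr65 probe set read 2.6 at pH 6.4 and 5.3 at pH 7.4 in TDAG8 cells, and 1.3 and 2.1 in control cells, so it detected the receptor in neither and gives no check of the labels. Of 12 epithelial markers only the keratin gene Krt8 (1706 to 2648) and Krt18 (35.5 to 171) read 50 or more on any of the 4 arrays. The epithelial marker sum ran from 1852 to 2922. The adhesion gene Cdh1 read at most 4.6 and Epcam 31.8 to 37.1, and of 10 lung markers only Hopx (195.9 to 216.1) read 50 or more, while Sftpc and Nkx2-1 read at most 10.4 and 4.7. Of 11 fibroblast and mesenchymal markers 8 read 50 or more, Vim (7030 to 7716) among them, and their sum ran from 18876 to 20415. The 13 leukocyte markers summed to 100.7 to 135.7 with 0 of them reaching 50. In the 10 endothelial markers the sum was 96.8 to 149.5, with Egfl7 alone above 50. In bulk RNA of this kind, fewer cells of a type and less RNA per cell cannot be told apart.

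Genes of chemokines, NF-kB inhibitors, immediate early factors and arrestin-domain proteins were among those higher at pH 6.4 than at pH 7.4 in both lines, and some genes of developmental transcription factors, the amino acid response and RNA 3′ end processing were lower. Cxcl2, a chemokine gene, rose 17.3-fold (log2 4.11, SE 0.17). Fos rose by log2 5.00 (SE 0.37), a value that depends on the pseudocount because its neutral signals were low, and it ran from 3.16 to 5.30 with the pseudocounts tried. The zinc finger gene Bnc1 (log2 -3.59, SE 0.12) and the transcriptional repressor gene Klf3 (log2 -3.53, SE 0.12) fell most. By limma, with line as a block and adjusted p under 0.05, 3325 of 12161 genes tested passed (27.3%). Of these 1412 were higher at pH 6.4 (11.6% of those tested) and 1913 lower (15.7%). Of the passing genes 42.5% were higher, and 18.5% with arrays centred on their medians, a scaling that moved the median difference of all genes in control cells by -0.176, so small differences are relative to the scaling. Among the passing genes 1634 had a difference under 0.58 on the log2 scale, and the genes described below are mostly far beyond it. The fit has 1 residual degree of freedom and borrows its spread from genes of like level, and without that trend 0 genes passed although 3624 had an unadjusted p under 0.05. With the spread taken from all 10 arrays 2980 passed, and 2121 passed without a trend among genes that read 50 or more on at least 1 array.

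A rule without a test gave a shorter list. At or beyond 1 on the log2 scale in both lines were 142 genes in the higher direction (1.17% of 12161) and 360 in the lower (2.96%), and 129 and 343 of them passed limma. In opposite directions by at least 1 were 26 genes, of which 2 read 50 or more. Taken singly, the TDAG8 line had 1103 genes at or beyond 1 in either direction and the control line 1131. Among the 8657 genes that read 50 or more, 108 were higher and 286 lower in both lines, and the differences of the lines had a Pearson correlation of 0.814 across these genes (0.593 over all genes tested). This describes 4 arrays, genes are not independent replicates, and the arrays share their normalisation.

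**Figure D1:**
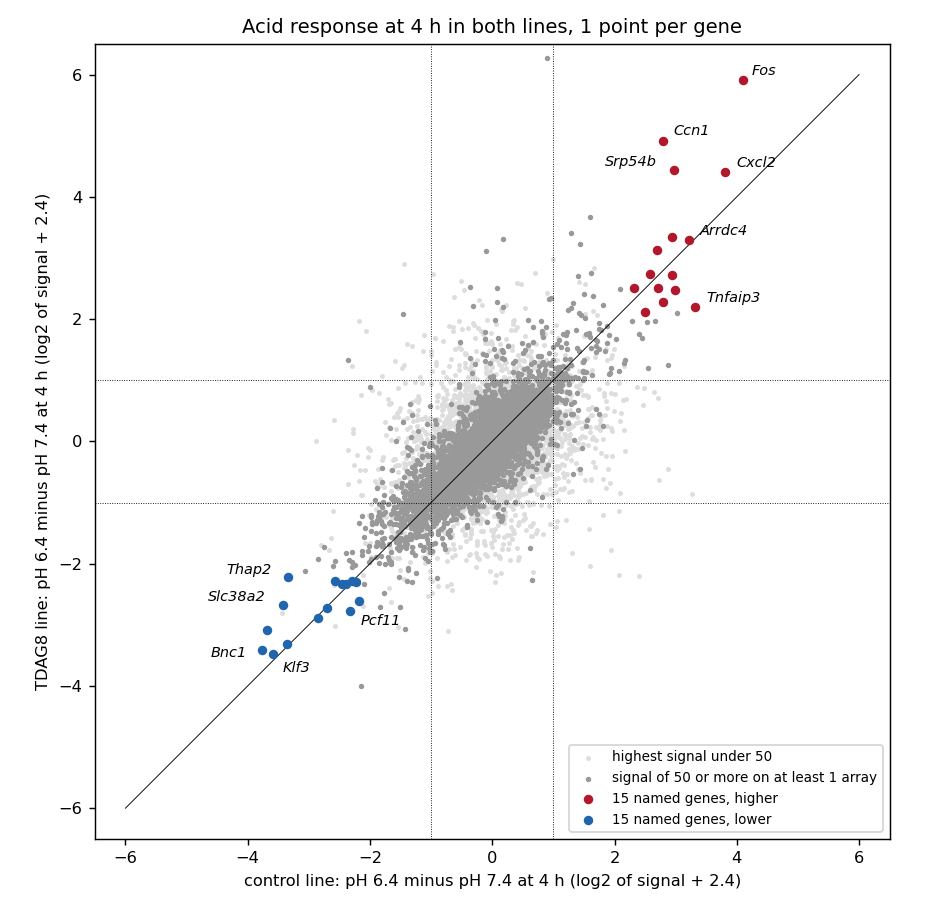
Difference between pH 6.4 and pH 7.4 at 4 h in control cells (horizontal axis) and the TDAG8 line (vertical axis), as log2 of signal + 2.4, with 1 point for each of the 12161 genes, dotted lines at 1 and -1 and a solid line of equal response. Most of the 15 named genes in each direction lie near the line of equal response. Fos, Ccn1, Srp54b and Thap2 lie more than 1 above it and Tnfaip3 more than 1 below it. The cloud of genes with signals under 50 is wider than that of the others.

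Immediate early genes were among those that rose. Fos, an AP-1 subunit, read 546.9 in acid against 7.1 at neutral pH in TDAG8 cells, and 172 against 7.6 in control cells (limma adjusted p = 0.000178). Junb, a partner of Fos, read 369.7 and 326.4 in acid and 56.9 and 54.7 at neutral pH in the TDAG8 and control lines (log2 2.66, SE 0.12, adjusted p = 3.71e-05). In both genes each acid array stood far above both neutral arrays. For the list counts here and below, the shares over all genes tested were 11.6% higher and 15.7% lower. The lists were chosen with earlier results of these data known, so counts beyond those shares describe the lists and test nothing. Of 13 AP-1 factors 4 rose and 0 fell, the others being the small Maf genes Maff (log2 2.03) and Mafk (log2 1.05). Jun differed by 0.21 and Fosl1 by -0.22 without passing. Of 17 EGR, IER and other immediate early genes 10 rose and 1 fell. They included Zfp36, which encodes a protein that destabilises cytokine mRNA (log2 2.13, SE 0.14), the antiproliferative gene Btg2 (log2 1.66), Myc (log2 0.86) and Ier2 (log2 0.75), and Zfp36l2 fell by 0.64. Of 12 Krüppel-like factors Klf10 (log2 2.07, SE 0.16), Klf2 (log2 1.76), Klf11 (log2 1.41), Klf9 (log2 1.10) and Klf5 (log2 1.03) rose, while Klf3 fell.

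Chemokine genes were also among those that rose. Cxcl2, which encodes an attractant of neutrophils, read 662.6 and 372.4 in acid and 29.9 and 24.7 at neutral pH in the TDAG8 and control lines (limma adjusted p = 2.39e-05). Its neighbour Cxcl1, with the shared promoter motif shown above, went from 490.4 to 4448 in TDAG8 cells and from 561.5 to 4093 in control cells (log2 2.92, SE 0.09, adjusted p = 1.40e-05). The 3 probe sets of Cxcl1 on the array moved alike. Ccl7, an attractant of monocytes, read 217.4 and 140.3 in acid against 21.7 and 16.8 (log2 3.14, SE 0.18). Ccl2, with a like function, read 2971 and 3073 against 692.3 and 425.7 (log2 2.31, SE 0.14). Cxcl10, which attracts T cells, read 41.1 and 80 against 5.9 and 10, so its log2 value of 2.61 (SE 0.26) depends on the pseudocount. Of 18 chemokine and cytokine genes 8 rose and 0 fell, and 7 were at or beyond 1 in both lines. The others that rose were the macrophage growth factor gene Csf1 (log2 1.18), Il6 (log2 2.64, SE 0.53) and Ccl5 (log2 1.99, SE 0.49). Il6 was higher by 3.67 in TDAG8 cells and by 1.61 in control cells. The list's median difference was 1.65 in TDAG8 cells and 0.50 in control cells, where all genes tested had medians of -0.000196 and 0.00458.

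Genes of the NF-kB system rose without exception among the members that passed, 10 of 17 with 0 falling. Tnfaip3, whose product A20 removes ubiquitin chains and so dampens NF-kB, read 131.5 and 291.7 in acid against 30.8 and 27.9 at neutral pH (log2 2.76, SE 0.25, adjusted p = 0.000386). The inhibitor genes Nfkbie (log2 2.18) and Nfkbia (log2 0.85, SE 0.04) rose. So did Nfkbiz, another gene of the list (log2 1.80, SE 0.07), and the subunit genes Relb (log2 1.46) and Nfkb2 (log2 1.32). Nfkbia read 3768 and 4395 in acid against 1870 and 2164, with no overlap between the acid and neutral arrays. The cyclooxygenase gene Ptgs2, of the list of prostaglandin and adhesion genes with 3 of 7 rising, went from 305.1 to 3092 in TDAG8 cells and from 313.2 to 896.9 in control cells (log2 2.34, SE 0.33). Without a trend, among genes that read 50 or more on at least 1 array, 10 of 14 NF-kB genes and 7 of 10 chemokine and cytokine genes rose. That filter keeps genes that reached 50 only in acid, Cxcl2 and Tnfaip3 among them. It so favours raised genes, and these shares are no further support. Over all genes under that setting 773 rose and 1348 fell.

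Arrestin-domain genes on the list of MondoA targets and regulators rose in both lines. Arrdc4 read 158 and 131.1 in acid against 16 and 12.1 at neutral pH (log2 3.25, SE 0.18, adjusted p = 5.84e-05). Txnip, whose product binds thioredoxin and limits glucose uptake, went from 448.6 to 2724 and from 415.9 to 3751 (log2 2.73, SE 0.11, adjusted p = 2.39e-05). Arrdc3 (log2 2.24, SE 0.14) and Arrdc2 (log2 2.07, SE 0.18) rose too. Of the 12 genes on this list these 4 rose and 4 fell, the latter being the MAX partner genes Mxd4 (log2 -0.85) and Mxd1 (log2 -0.83), Max (log2 -0.39) and the hexokinase gene Hk2 (log2 -0.75).

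Other genes among the 15 with the strongest rise belong to several systems. Ccn1, a matrix-associated signalling protein and YAP target, read 1216 and 290.2 in acid against 37.6 and 41.8 (log2 3.86, SE 0.40, adjusted p = 0.000637), and with a robust prior its adjusted p was 0.129. Gadd45b, a stress gene, read 636.9 and 275.3 against 110.8 and 56.3 (log2 2.42). Slc16a6, a transporter of the monocarboxylate family, read 68.5 and 128.4 against 14 and 17 (log2 2.54). The ankyrin repeat gene Ankrd33b (log2 2.83) and the histone gene H2aw (log2 2.31) rose as well. Srp54b (log2 3.71, SE 0.31) has near-identical copies in the mouse genome, so its probe set may read more than 1 gene. With all its probe sets averaged, Ankrd33b differed by 0.56 and did not pass (adjusted p = 0.193).

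**Figure D2:**
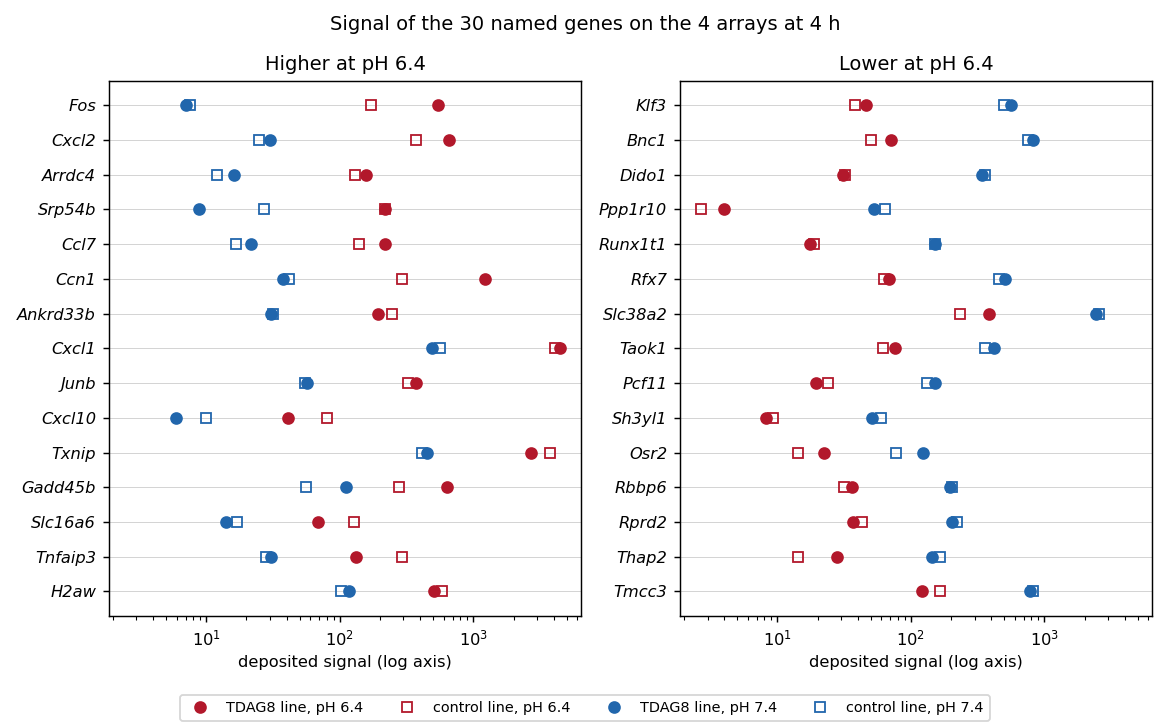
Deposited signal (log axis) of the 15 genes with the strongest shared rise (left) and the 15 with the strongest shared fall (right) on the 4 arrays at 4 h, with pH 6.4 in red, pH 7.4 in blue, filled circles for the TDAG8 line and open squares for the control line. In all 30 genes both red points lie on the same side of both blue points, which the choice of genes by large differences in both lines favours. Among the raised genes the lines lie farthest apart in acid for Fos and Ccn1.

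Cytoskeleton and damage-response genes rose by less. Of 16 targets of SRF, the factor that couples actin to transcription, 14 rose and 1 (Rnd3) fell. The largest were Fhl2 (log2 1.67, SE 0.16), Myl9 (log2 1.38), the GTPase gene Rhob (log2 1.12, SE 0.07) and smooth muscle actin Acta2 (log2 0.70). Most of the others differed by under 0.58, and with arrays centred on their medians 5 of 16 rose and 1 fell. Of 15 p53 target genes 8 rose (53.3%, against 11.6% of all genes tested) and 2 fell (13.3%, against 15.7%). They included the death genes Pmaip1 (log2 1.84), Tnfrsf10b (log2 2.25) and Fas (log2 2.01, with signals of 1.0 and 5.6 at neutral pH), and Cdkn1a, which encodes an inhibitor of the cell cycle (log2 1.27, SE 0.10). Cdkn1a read 308.8 and 394.2 in acid against 126.1 and 180.3. Of 14 Bcl2 family genes 6 rose and 3 fell, and Bmf (log2 -1.38) and Bcl2l11 (log2 -0.57), both promoters of death, were among those that fell. Growth factor genes moved both ways. Hbegf rose from 23.5 to 125.1 and from 36.2 to 151.4 (log2 2.29, SE 0.17), Ereg rose (log2 0.88), and the receptor gene Pdgfra fell from 1081 to 264.7 and from 1005 to 279.2 (log2 -1.88, SE 0.09). A further probe set of Pdgfra was higher in acid, at 125.4 and 144.2 against 71 and 55.8 (log2 1.21, adjusted p = 0.00053). Of 15 angiogenic genes 0 rose and 1 fell, Vegfa (log2 -1.05, SE 0.25), by 0.46 in TDAG8 cells and 1.64 in control cells. Another Vegfa probe set did not pass and read 129.5 against 75 in TDAG8 cells and 70.3 against 75.8 in control cells.

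**Figure D3:**
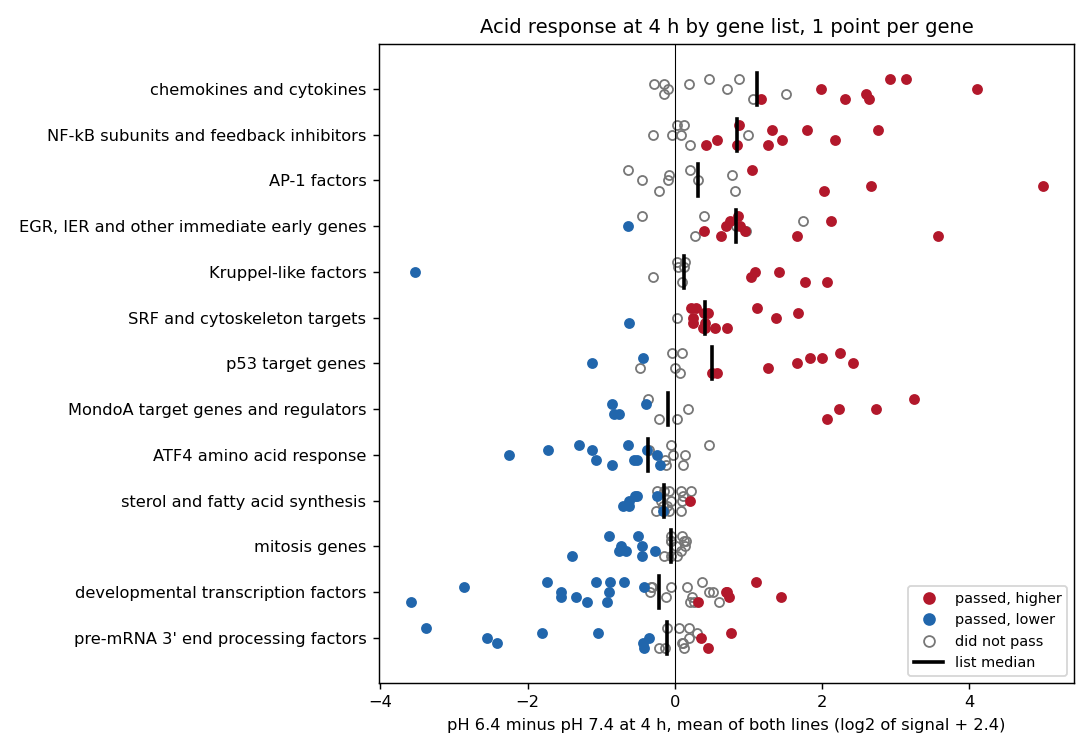
Mean log2 difference between pH 6.4 and pH 7.4 at 4 h over both lines for the members of 13 gene lists, with 1 point per gene, filled where the gene passed limma (red higher, blue lower), open where it did not, and a black bar at the list median. Chemokine, NF-kB and immediate early lists have their medians to the right of 0 and the ATF4 list has its median to the left, with passing members at both ends in the list of developmental transcription factors.

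Several transcription factor genes fell. Klf3 read 46 and 38.4 in acid against 564.4 and 498.6 at neutral pH in the TDAG8 and control lines (limma adjusted p = 1.40e-05). Bnc1 read 71.2 and 50.1 against 817.2 and 750.7 (adjusted p = 1.40e-05). For both genes the lines lay close together at either pH. The corepressor gene Runx1t1 fell from 150.5 to 17.7 and from 150.3 to 18.9 (log2 -2.87, SE 0.17), and all 4 of its probe sets tested passed in that direction. Rfx7, of the RFX factors, read 68.6 and 62.9 against 502.9 and 456.5 (log2 -2.72, SE 0.11). Osr2, a limb and palate factor, read 22.4 and 14.2 against 123 and 77.3 (log2 -2.29, SE 0.19). Of 32 developmental transcription factors 13 fell (40.6%, against 15.7% of all genes tested) and 6 rose (18.8%, against 11.6%). This list too was chosen with earlier results of these data known, which by itself can raise the share that fell. By at least 1 in both lines 8 fell. Snai2 (log2 -1.74, SE 0.08), Zeb1 (log2 -0.92) and Prrx1 (log2 -0.89), known as mesenchymal factors, fell, and Lhx9 (log2 1.44), Hand2 (log2 1.11) and Zeb2 (log2 0.71) rose. Of the 8 mesenchymal markers tested 4 fell, and Lum, Fn1 and Pdgfrb, which fell beside Pdgfra, did so by under 0.58. With all probe sets averaged, Klf3 (log2 -0.59, adjusted p = 0.0919) and Osr2 (log2 -0.72, adjusted p = 0.216) no longer passed.

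Genes of the amino acid response fell in part. Slc38a2, which encodes a transporter of small neutral amino acids that rises under hypertonic or amino acid stress, read 384.9 and 231.4 in acid against 2421 and 2579 (log2 -3.04, SE 0.15, adjusted p = 3.95e-05). Another Slc38a2 probe set fell by less, at 250.6 and 219.5 against 416.5 and 469.8 (log2 -0.83). A further set, with signals of at most 30.9, did not pass (log2 0.37). Of 20 genes on the ATF4 list 12 fell and 0 rose, and their median difference was -0.32 in TDAG8 cells and -0.34 in control cells. Atf4 itself went from 3321 to 1315 and from 3203 to 1729 (log2 -1.31, SE 0.09, adjusted p = 0.000146). Its targets Chac1 (log2 -2.25, SE 0.32), Trib3 (log2 -1.73), Sesn2 (log2 -1.13) and Ddit4 (log2 -1.07) fell, and Asns fell by 0.24. The other 8 did not pass, and 8 of 20 fell with arrays centred on their medians and 7 with the spread of all 10 arrays. Chac1 fell by 3.07 in TDAG8 cells and 1.43 in control cells. Chaperone and unfolded protein genes were mixed, 3 of 18 rising and 4 falling, with Herpud1 (log2 -0.86) the largest. These shares, 16.7% and 22.2%, are not far from the 11.6% and 15.7% of all genes tested.

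RNA 3′ end processing and RNA polymerase II genes formed another group. Pcf11, a cleavage and termination factor, read 19.6 and 23.9 in acid against 150.6 and 131.4 (log2 -2.55, SE 0.19). Ppp1r10, which targets protein phosphatase to the elongating polymerase, read 4 and 2.7 against 52.7 and 63.6, and its log2 value of -3.38 (SE 0.33) depends on the pseudocount. Rbbp6 (log2 -2.42, SE 0.15) and Wdr33 (log2 -1.80, SE 0.14), of the cleavage machinery, fell as their brightest probe sets show, and so did Cstf3 (log2 -1.04). Of 21 genes on this list 8 fell, 3 rose and 10 did not pass, and the poly(A) polymerase gene Papola rose by 0.77. Dido1, whose product binds the polymerase, read 31.2 and 32.3 against 343.1 and 359.1 (log2 -3.34, SE 0.13). Another Dido1 probe set passed as lower (log2 -1.03), and the others tested did not pass, at log2 0.52, -0.29 and -0.95. Rprd2, a protein of the polymerase tail, fell by 2.27 (SE 0.14). Rbbp6, Wdr33, Pcf11 and Rprd2 each have another probe set that was higher, described below, so the sign of each depends on which probe set stands for the gene. In the alternatives tried the sign turned for Rbbp6, Wdr33 and Rprd2. With all probe sets averaged, 5 of the 21 genes on the 3′ end list fell and 2 rose, and the list median was 0.007. The remaining genes of the 15 lowest were the kinase gene Taok1 (log2 -2.36), Tmcc3, of the endoplasmic reticulum (log2 -2.39), Thap2 (log2 -2.78) and Sh3yl1 (log2 -2.40). With all probe sets averaged, Taok1 did not pass (log2 -0.56, adjusted p = 0.0891).

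Cell cycle and metabolic genes that passed mostly differed by less than 1. Of 21 mitosis genes 9 fell and 0 rose, with the kinesin gene Cenpe lowest (log2 -1.39, SE 0.16) and Ccnf (log2 -0.89), Kif20a (log2 -0.76) and Plk1 (log2 -0.66) next. Of 23 G1/S and replication genes 10 rose and 1 fell, led by the licensing gene Cdc6 (log2 0.85) and Ccnd3 (log2 0.59), while Ccnd2 fell by 0.67, and 1 rose and 2 fell with arrays centred on their medians. Of 23 sterol and fatty acid genes 7 fell and 1 rose, with Fasn (log2 -0.71) and Msmo1 (log2 -0.62) among those that fell, and 2 fell and 0 rose with arrays centred on their medians. Of 26 glycolysis and hypoxia genes Pfkfb3, which raises glycolytic flux (log2 1.76, SE 0.19), was among 4 that rose. Egln3, the oxygen sensor (log2 -1.26, SE 0.07), was among 5 that fell. The shares of this list, 15.4% rising and 19.2% falling, are near the 11.6% and 15.7% of all genes tested. Of 10 acid-base transporters and proton sensors 0 rose and 1 fell, the anion exchanger gene Slc4a2 (log2 -0.54, SE 0.14). Car9, which encodes an acid-extruding carbonic anhydrase, was higher by 0.43 in TDAG8 cells and 1.62 in control cells without passing (adjusted p = 0.0981).

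Other lists had passing members in both directions or mostly rising ones, where 11.6% of all genes tested rose and 15.7% fell. Of 21 cAMP and CREB targets 4 rose and 6 fell, with the clock gene Per1 (log2 1.77, SE 0.15) highest and Id1 (log2 -1.56, SE 0.17) lowest. Of 19 ERK feedback genes 6 rose, led by Dusp16 (log2 1.37) and Phlda1 (log2 1.5), and 4 fell, including Spred2 (log2 -0.90) and Dusp4 (log2 -0.87). In the list of CCN proteins and YAP targets 6 of 15 rose and 1 fell, Amotl2 (log2 1.79) rising and Ccn4 (log2 -1.42) falling. For TGF-beta and BMP feedback genes 5 of 13 rose, including Skil (log2 1.31) and Tgfb1 (log2 1.07), and 3 fell. Heat shock genes gave 2 of 13 in each direction (15.4%, near the shares of all genes tested), with Hspa1a up (log2 1.41) and Dnajb1 down (log2 -0.71). The kinase gene Pim1 (log2 1.58) and Stat3 (log2 0.72) were the 2 of 14 JAK-STAT genes that rose. Of 14 interferon response genes 2 rose and 1 fell, and of 25 lysosome and autophagy genes 7 rose and 1 fell, and with arrays centred on their medians the latter counts were 1 and 0. The 20 oxidative phosphorylation genes gave 5 rising and 0 falling, all by under 0.3, but 0 rising with arrays centred on their medians and 12 with the values as deposited. Of 8 reference genes 2 rose, by 0.23 (Sdha) and 0.14 (Ywhaz), against 0 and 7 under those scalings.

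Probe sets of the same gene could move in opposite directions. A probe set is a group of short probes that reads 1 stretch of a transcript, usually near a 3′ end, so several sets can read transcripts with different ends. Of 22854 probe sets with 1 gene symbol 6088 passed (26.6%), and 5959 genes had more than 1. In 35 of these genes, 1 probe set was higher and another lower by at least 1 in both lines, and in 23 both sets read 50 or more and passed. The search for such genes was made after the data had been seen.

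Armc8, of a ubiquitin ligase complex, gave the widest split. Its raised set read 352.6 and 334.7 in acid against 50 and 53 at neutral pH (log2 2.75, SE 0.13), and its lowered set read 13.6 and 10.3 against 87.8 and 66.9 (log2 -2.47, SE 0.23). The RhoGEF gene Trio had a set at 96.9 and 85.1 against 21.3 and 15.8 and another at 134.6 and 110 against 784.2 and 685.2. In both genes the acid arrays stood apart from the neutral ones in either set, with the lines close together. Pcf11 read 93.3 and 98.2 against 24.9 and 29.8 in its raised set (log2 1.88, SE 0.18), Rbbp6 87.7 and 117.1 against 20.1 and 21.9 (log2 2.28), Rprd2 282.8 and 246.1 against 51.1 and 76.6 (log2 2.14) and Wdr33 190.1 and 175.4 against 51.6 and 75.2 (log2 1.63). The interleukin-1 receptor subunit gene Il1rap (log2 2.17 and -1.81), the kinase gene Tlk2 (log2 2.78 and -1.62) and the caspase-8 regulator gene Cflar (log2 2.00 and -1.39) also had raised and lowered sets. At 12 h the 23 raised sets had the same sign in both lines in 22 genes, with a median of 1.68 at 4 h and 1.83 at 12 h. The lowered sets kept their sign in 20 genes, with medians of -1.65 and -0.59.

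**Figure D4:**
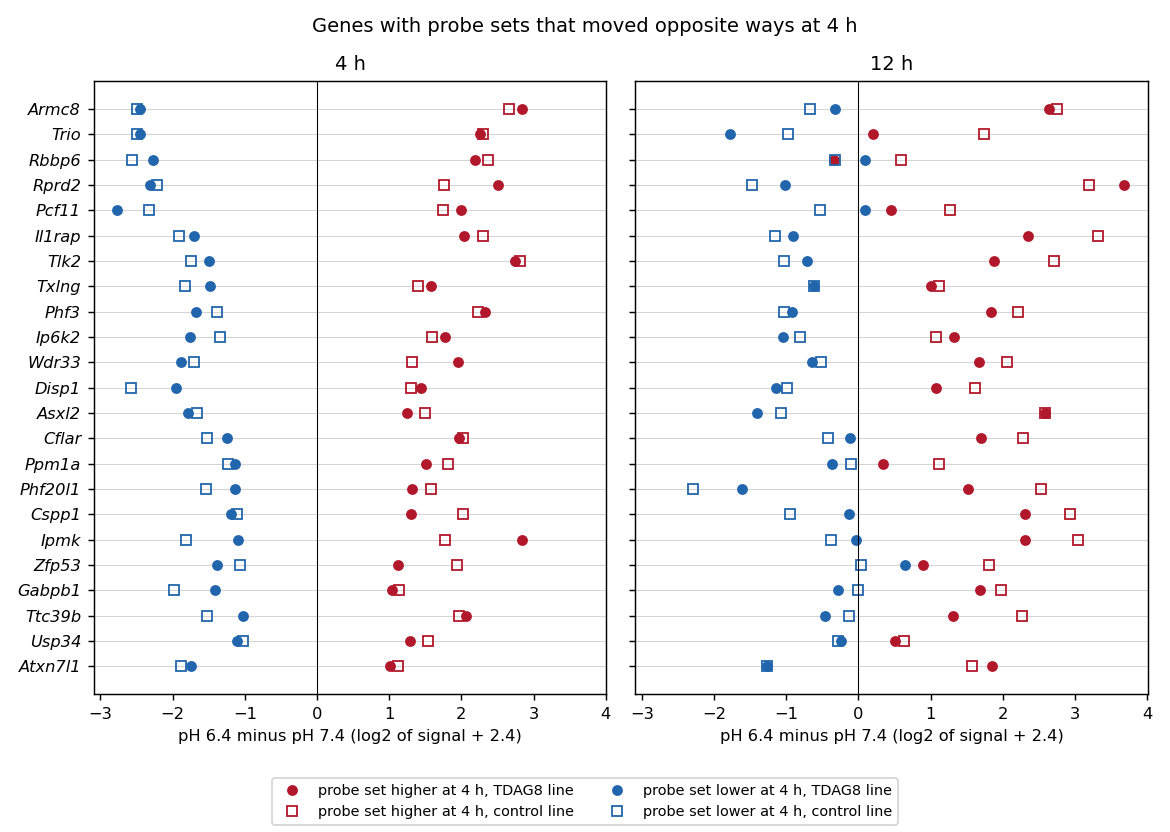
Log2 difference between pH 6.4 and pH 7.4 at 4 h (left) and 12 h (right) for 23 genes with a raised and a lowered probe set at 4 h, with the raised set in red, the lowered set in blue, filled circles for the TDAG8 line and open squares for the control line. At 4 h every red point lies beyond 1 and every blue point beyond -1, as the choice of genes requires, and at 12 h the blue points mostly lie nearer to 0 than the red ones.

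Some large changes lay in probe sets that do not stand for their gene. In 212 genes a probe set with a signal of 50 or more, other than the brightest, differed by at least 1 in both lines while the brightest set did not differ so in that direction, with 130 genes raised and 88 lowered in this way. Nfe2l2, which encodes the antioxidant regulator NRF2, had a set at 186.6 and 223.7 in acid against 2.6 and 6.6 at neutral pH, signals too low for a fold. Its brightest set fell by 0.54. It and the next genes were picked after their values had been seen. Of 14 NRF2 antioxidant genes 3 rose and 2 fell, and those that rose, Osgin1, Gsta4 and Gstm1, did so by 0.51 to 0.77. The LIM protein gene Pdlim5 had a set at 370.9 and 350.4 against 17.3 and 11.2 (log2 4.49), while its brightest set differed by -0.33 and -0.32. In the phosphodiesterase gene Pde10a a set read 7.5 and 3.5 against 137.4 and 78 (log2 -3.79), while the brightest differed by -0.43 and -0.26. Of the 20 largest such probe sets 16 were raised. Among the 360 genes that were lower in both lines 148 had a single probe set, 71 had another that was also lower by at least 1 in both lines, 20 had 1 that was higher and 127 had neither. For the 142 higher genes these counts were 84, 22, 6 and 30.

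The early response was compared with that at 12 h, which used the other 4 treated arrays of the same lines. By limma with each pair of arrays as a block, the pH difference at 4 h differed from that at 12 h in 1742 of 12161 genes (14.3%), 772 more positive and 970 more negative at 4 h. The more positive ones were 44.3% of those passing, and 19.2% with arrays centred on their medians. In 1252 of them the difference was larger at 12 h. Genes that had fallen by at least 1 in both lines moved back: of the 360, 141 passed with the larger difference at 4 h and 8 with the larger at 12 h, and their median went from -1.42 to -0.75. The 142 higher genes had medians of 1.59 and 1.31, with 14 larger at 4 h and 4 at 12 h. These genes were chosen for their size at 4 h, a choice that by itself favours a smaller median at 12 h. The count was 374 without the TDAG8 pair at 4 h and 73 without the control pair at 4 h. It was 0 without a trend, where 3135 genes had an unadjusted p under 0.05.

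Fos was 2.84 higher at 4 h than at 12 h in its log2 difference (SE 0.62, adjusted p = 0.0242), with differences of 2.76 and 1.56 at 12 h in the TDAG8 and control lines. The histone genes H2aw and H2bc21 were higher in acid at 4 h and lower at 12 h: H2aw differed by 2.31 and then by -0.52, and H2bc21 by 1.52 and then by -0.57 (adjusted p = 0.00150 and 0.00619 for the contrast of times). Junb (1.16 larger at 4 h, adjusted p = 0.0102), Cxcl2 (1.49) and Btg2 (1.48) also had their larger difference early, as did Srp54b (1.66). The splicing factor gene Srsf6 and Ccn4 fell further, Srsf6 from -1.21 to -2.85 and Ccn4 from -1.42 to -3.02. Among genes lowered at 4 h, Pcf11 differed by -2.55 at 4 h and by -0.22 at 12 h (adjusted p = 0.00551), and Rbbp6 by -2.42 and -0.11. The centrosome gene Cep97 went from -1.40 to 0.80, Abraxas1, of a BRCA1 complex, from -1.51 to 0.60, Dennd5b, a Rab activator, from -1.39 to 0.61, and the COPII coat gene Sec24a from -1.51 to 0.40. Nfatc1, a calcineurin target, went from -1.99 to -0.09. Ppp1r10 (adjusted p = 0.0498) did not pass without the TDAG8 pair of either time or the control pair at 4 h, and Fos did not pass without the TDAG8 pair at 4 h or the control pair at 12 h. With all probe sets averaged, the contrast for Rbbp6 was 0.30, and Nfatc1 differed by 0.11 at 4 h. Chemokine genes Cxcl1, Ccl7 and Ccl2, the arrestin genes Arrdc4 and Txnip, and Bnc1 did not pass this contrast, with differences between times of 0.48, -0.19, -0.12, -0.33, 0.35 and 0.13.

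**Figure D5:**
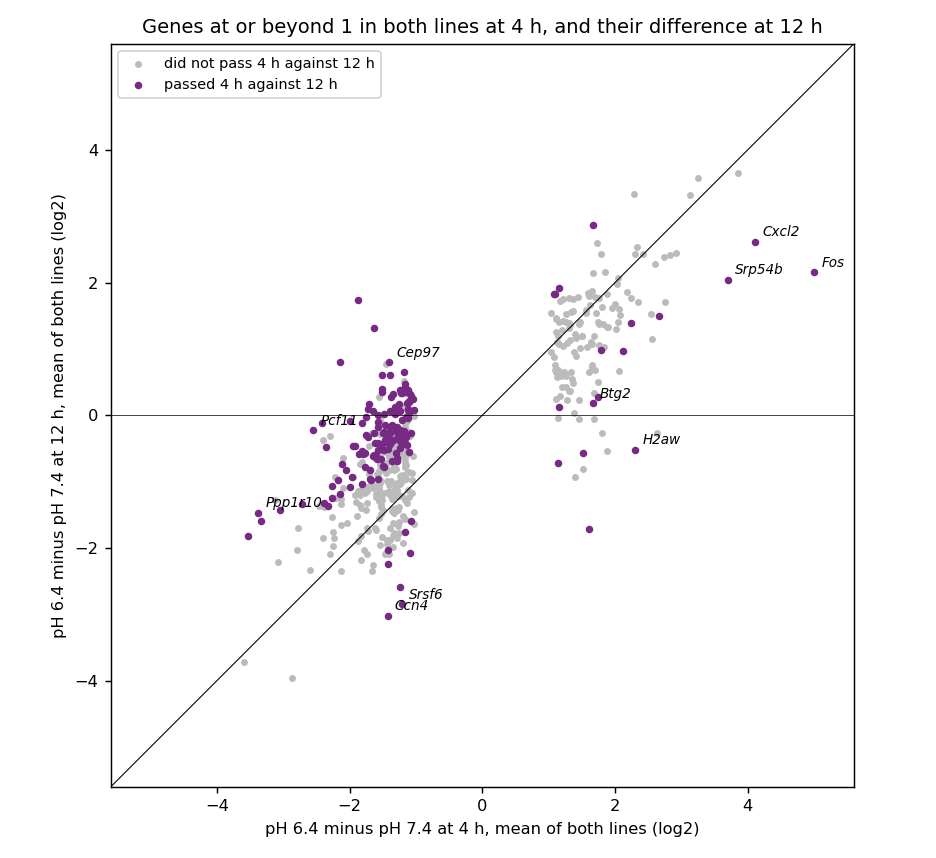
Mean log2 difference between pH 6.4 and pH 7.4 over both lines at 4 h (horizontal axis) and 12 h (vertical axis) for the 502 genes at or beyond 1 in both lines at 4 h, purple where the contrast of times passed limma, with a solid line of equal difference. Most purple points are genes lowered at 4 h that lie between the line of equal difference and 0 or above 0 at 12 h, and H2aw lies at 2.31 on the horizontal and -0.52 on the vertical axis.

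Some genes did not change alike in the lines, and this was not tested because each line has 1 array per pH. The lines differed in their pH difference by at least 1 in 873 genes (7.18%), of which 127 read 50 or more on at least 1 array. In 441 of the 873 the TDAG8 value was the higher (50.5%), and in 35.2% of such genes with the values as deposited. Nr4a3, a nuclear receptor of the cAMP response that counts among the genes that rose, read 215.7 in acid against 0.6 in TDAG8 cells and 3.0 against 0.4 in control cells, so its fold is not given. Nr4a2 read 864 against 84.7 in TDAG8 cells and 69.1 against 66 in control cells, and another of its probe sets read 453.1 against 35.7 and 58.1 against 29.4. The AP-1 gene Fosl2 read 1121 against 251.9 in TDAG8 cells and 77.7 against 238 in control cells. Another Fosl2 probe set was higher in both lines, at 619.5 against 32.9 and 59.9 against 20.9, so the opposite signs hold for 1 of its 2 sets. For the decoy chemokine receptor gene Ackr3 the signals were 829.8 against 313.4 and 64.7 against 370.3. Il11 read 60.1 against 5.7 in TDAG8 cells and 7.4 against 6.7 in control cells. In the other direction Rusc1 read 17.1 against 95.3 in TDAG8 cells and 61.5 against 41.2 in control cells, but its 4 other probe sets were positive in both lines. Egr3 read 69.2 against 112.4 and 207.2 against 87.5. Cass4, a focal adhesion gene, was lower in both lines, by 4.00 in TDAG8 cells and 2.14 in control cells. The difference was -2.37 for the kinase gene Zap70 and -1.88 for Zfp777.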

How the data were processed

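RNA of 10 mixtures of mouse LLC cells was measured on Affymetrix Mouse430 2.0 arrays, and the 4 arrays at 4 h were compared here, with the 4 at 12 h for the contrast of times. The deposited values are signal intensities on a linear scale that the authors had scaled so that each array has a 2% trimmed mean of 100, as the values themselves show. How each array was summarised, and with which software, is not given in the sources used here. Signals are not counts, and without replicate arrays p-values rest on the spread between the 2 lines.

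Quantile normalisation was applied to these values over all 10 arrays. Then log2(signal + 2.4) was computed, with the pseudocount set at the 20th percentile of the deposited values over all arrays. Fold changes are on that scale, which understates those of low genes. Probe sets were named from the platform annotation: 34945 of 45101 had 1 gene symbol, 932 several and 9160 none. Only probe sets with 1 symbol were used. The probe set with the highest mean stood for each of 18193 genes, and the 12161 genes at or above the 40th percentile (signal 6.61) were tested. limma (version 3.58.1, R 4.3.3) fitted pH with line as a block, with a prior variance that follows the level and Benjamini-Hochberg adjustment. The model for times used each pair of arrays as a block. The code was tested on simulated data.

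The members and gene lists were chosen with earlier results of these data known. Named genes read 50 or more on an array at 4 h, had both lines of the same sign, and were ranked by the smaller of the lines' differences. The first 15 in each direction and up to 4 per list were named, with list members needed for a role, 8 in each direction for the contrast of times and 5 in each direction between the lines. The alternatives were other normalisations, filters, pseudocounts, variance models and probe set rules, and each line or pair left out. Promoters were taken from RefSeq (GRCm38.p6): 13 of the 15 raised and 13 of the 15 lowered genes matched.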

Additional observations from a re-analysis of the deposited data

Results flagged for a closer look

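The pH difference at 4 h differed from that at 12 h in 1742 genes by limma, and the genes with the largest such differences are given here as 4 h minus 12 h on the log2 scale. The contrast was positive for Fos (2.84), H2aw (2.83), H2bc21 (2.09), Srp54b (1.66), Cxcl2 (1.49) and Btg2 (1.48), all higher in acid at 4 h. It was also positive for Srsf6 (1.64) and Ccn4 (1.59), both lower in acid and further lowered at 12 h. The contrast was negative for Pcf11 (-2.33), Rbbp6 (-2.31), Cep97 (-2.20), Abraxas1 (-2.11), Dennd5b (-2.0), Ppp1r10 (-1.91), Sec24a (-1.91) and Nfatc1 (-1.90), all lower in acid at 4 h.

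Of the 10 genes named for the largest differences between the lines at 4 h, 7 had signs that were opposite in the lines after normalisation. For Il11 among them the control value was -0.095, from deposited signals of 7.4 in acid and 6.7 at neutral pH, so its sign carries no weight. The differences between the lines were not tested, since each line had 1 array per pH. The pH difference of the TDAG8 line minus that of the control line was 3.69 for Ackr3, 3.54 for Fosl2 and 3.21 for Il11, and another probe set of Fosl2 was higher in acid in both lines. It was -2.92 for Rusc1, whose 4 other probe sets were positive in both lines, -2.37 for Zap70, -1.88 for Zfp777 and -1.87 for Egr3.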

How the results depend on the processing

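For the acid response at 4 h, where 3325 genes passed, the count was 2180 with the mean of all probe sets, 1789 with no line block, 0 with eBayes without trend (3624 at an unadjusted p under 0.05), 2121 without trend among signals of 50 or more and 2150 with the spread of all 10 arrays and no trend. The 502 genes at or beyond 1 in both lines became 302 with the mean of all probe sets, 190 with a pseudocount of 32, 1529 with a limit of 0.58, and 1103 to 1131 with either line alone. For 4 h against 12 h the 1742 genes became 1039 with the mean of all probe sets and 0 without trend, and 73 to 1940 when 1 pair was left out. The 873 genes with a difference between the lines became 3041 without a filter, 167 when filtered at the 60th percentile, 127 at a signal of 50, 432 with a pseudocount at the 40th percentile, 64 with one of 32, and 2081 with a limit of 0.58. The 35 genes with opposite probe sets became 20 with the 60th percentile filter, 23 with signals of 50 or more, 10 with a pseudocount of 32 and 129 with a limit of 0.58. The alternatives without trend combined with another setting, and those for the lines and for opposite probe sets, were chosen after seeing the data.

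Signs turned where another probe set came to stand for a gene or was averaged in: with quantile normalisation of the compared arrays only, Rprd2 was 2.13 and Wdr33 1.63, and with a pseudocount of 32 Rprd2 was 1.72. With all probe sets of a gene averaged, the 4 h difference was 0.018 for Rbbp6, 0.11 for Nfatc1, 0.23 for Ern1, 2.22 for Nfe2l2, 0.56 for Wdr33 and -0.13 for Ccnd3, and Rbbp6 was 0.30 for 4 h minus 12 h. The 30 leading genes all passed with median centring, with deposited values, without a filter and with no line block. With median centring their limma adjusted p-values were 1.74e-111 to 3.45e-15, too small to be taken at face value from 4 arrays. With all probe sets averaged 24 of the 30 held, 5 no longer passed and 1 changed sign. With a robust prior 1 did not pass, and without trend 0 passed by limma, with a lowest adjusted p of 0.105. The fits pair pH 6.4 with pH 7.4 within each line, and the labels give no replicate numbers for any other pairing. No condition had a second array, which limits the precision.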
